A study of Mus musculus with 2 samples.

Results

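The miR-26 family of the mouse is made from 3 microRNA genes, Mir26b, Mir26a-1 and Mir26a-2, each of which lies in an intron of a different Ctdsp gene. They were taken by name among the 1973 microRNA genes counted in embryonic kidney, and all 3 have a row. Kidneys were collected from healthy B6NCrl embryos at embryonic day 16.5, with males and females pooled, and small RNA under 30 nucleotides was sequenced in 2 libraries. Per the labels these are biological replicates 1 and 2 of 1 untreated group, replicate 2 comes from 41 embryos, and both carry the same donor record. The spread between them may therefore be partly technical, and no contrast between conditions exists. Levels are counts per 1000000 reads on the strand of the gene in microRNA gene rows (CPM), given as mean ± SD (n = 2).

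MicroRNAs are cut from hairpin precursors into short arms, called 5p and 3p, and the seed, bases 2 to 8, pairs with target messenger RNAs to repress them. The miR-26 family is known as a brake on proliferation and as a repressor of Ezh2, the methyltransferase of the Polycomb repressive complex. The hosts Ctdsp1, Ctdsp2 and Ctdspl encode small phosphatases that act on RNA polymerase II and on the retinoblastoma protein and help REST silence neuronal genes in non-neuronal cells. A microRNA in an intron on the strand of its host can be made from the host transcript. Host transcripts were not measured in these libraries.

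The mature arms are shown first, because Mir26a-1 and Mir26a-2 encode the same 5p arm and Mir26b a slightly different one. The mature sequences of RefSeq (build GRCm38.p6, the assembly of mm10) are given 5′ to 3′ with the seed in capitals, and all 3 genes matched the table.
miR-26a-5p (Mir26a-1 and Mir26a-2): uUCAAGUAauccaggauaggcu
miR-26b-5p (Mir26b): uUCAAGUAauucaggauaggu
miR-26a-1-3p (Mir26a-1): cCUAUUCUugguuacuugcacg
miR-26a-2-3p (Mir26a-2): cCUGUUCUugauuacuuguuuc
miR-26b-3p (Mir26b): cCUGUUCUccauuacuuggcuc

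The 5p seed UCAAGUA was the same in all 3 genes, and no other gene in the RefSeq table carried it. Over the 21 positions compared, counted from 1 at the 5′ end, miR-26a-5p differed from miR-26b-5p by C11U and C21U, both outside the seed, and miR-26a-5p is 1 base longer. The 3p arms were less alike. Those of Mir26a-1 and Mir26a-2 differed at 6 of 22 positions, A4G in the seed among them, those of Mir26a-1 and Mir26b at 8, and those of Mir26a-2 and Mir26b at 4. The 3p seeds of Mir26a-2 and Mir26b were the same.

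The precursors show where the copies are identical, with the 5p and the 3p arm in capitals.
Mir26a-1 precursor: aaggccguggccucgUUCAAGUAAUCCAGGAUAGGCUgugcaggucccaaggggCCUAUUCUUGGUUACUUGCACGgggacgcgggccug
Mir26a-2 precursor: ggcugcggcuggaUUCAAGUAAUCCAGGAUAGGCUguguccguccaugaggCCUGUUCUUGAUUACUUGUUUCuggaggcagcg
Mir26b precursor: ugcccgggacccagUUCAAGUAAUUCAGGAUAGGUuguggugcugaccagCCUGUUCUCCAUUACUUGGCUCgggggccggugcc

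Mir26a-1 and Mir26a-2 shared an unbroken run of 25 nt, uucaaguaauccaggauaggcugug, which starts at the first base of the 5p arm and ends 3 bases past it. Outside this run they diverge, so that the whole precursors, aligned end to end, were 72.5% identical. Mir26b was 68.8% identical to Mir26a-1 and 67.4% to Mir26a-2, and its longest runs in common with them were 11 and 10 nt. Of all 22-nt windows, 4 of 69 in Mir26a-1 and 4 of 63 in Mir26a-2 occur in the other gene, and 0 of 64 in Mir26b occur in any other microRNA precursor of GENCODE M21. The 4 shared windows in each copy include the whole 5p arm. Folded with RNAfold, the precursors gave free energies of -49.4 kcal/mol for Mir26a-1, -44.5 for Mir26a-2 and -43.5 for Mir26b.

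**Figure D1:**
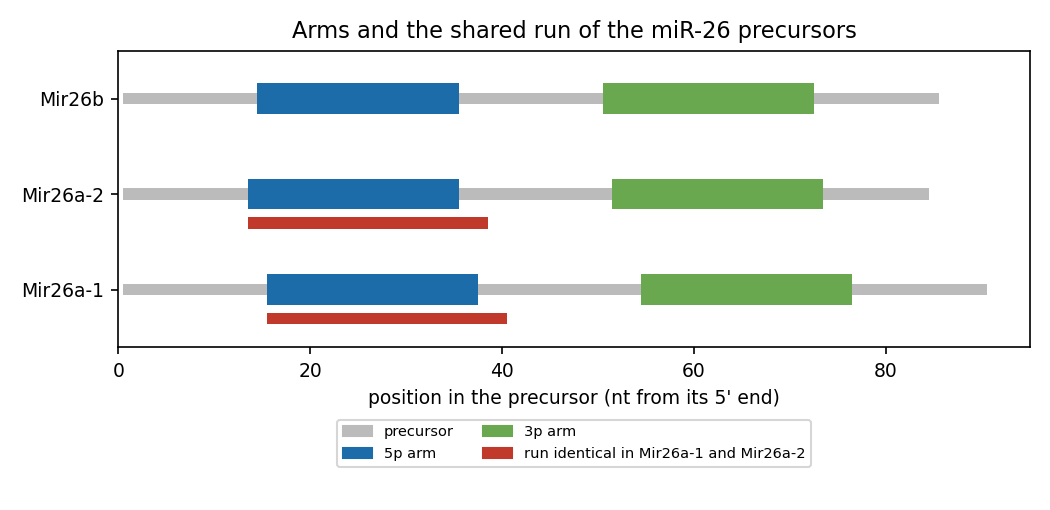
Position in nt along the precursors of Mir26b, Mir26a-2 and Mir26a-1 (grey bars of 85, 84 and 90 nt), with the 5p arm in blue, the 3p arm in green and the 25-nt run identical in both Mir26a genes in red. The red run covers the whole 5p arm in Mir26a-1 and Mir26a-2, is not found in Mir26b, and touches no 3p arm.

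The genes lie on 3 chromosomes, each on the strand of its host. Mir26b (ENSMUSG00000065468) occupies chr1:74394310-74394394 in intron 4 of 6 of the longest coding transcript of Ctdsp1, an intron of only 564 nt. Mir26a-2 (ENSMUSG00000065430) occupies chr10:126995530-126995613 in intron 5 of 7 of Ctdsp2, an intron of 1946 nt. Mir26a-1 (ENSMUSG00000065513) occupies chr9:119031796-119031885 in intron 5 of 7 of Ctdspl, an intron of 3283 nt. All 3 are on the plus strand of mm10, and none overlaps an exon of a GENCODE M21 transcript of its host.

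By counted reads, Mir26b was among the most abundant microRNA genes of the embryonic kidney. Reads that map to several places enter no rank, and came to 62.5 and 52.2 per 100 counted reads in replicates 1 and 2. Mir26b was counted with 152127 reads in replicate 1 and 197850 in replicate 2, or 28608 and 27754 CPM. These place it at rank 9 in replicate 1 and rank 10 in replicate 2, so that the libraries differed by little. Its mean was 28181 ± 604 CPM, or 2.82% ± 0.0604 of the reads in microRNA genes. In a single library its share has an exact (Clopper-Pearson) 95% interval of 2.85 to 2.87% in replicate 1 and 2.76 to 2.79% in replicate 2, which covers counting error only.

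The Mir26a genes were counted far lower. Mir26a-2 had 214 reads in replicate 1 and 321 in replicate 2, or 40.2 CPM (exact interval 35.0 to 46.0) and 45.0 CPM (40.2 to 50.2), with a mean of 42.6 ± 3.38 CPM and rank 212 over both libraries. Mir26a-1 had 36 and 81 reads, or 6.77 CPM (4.74 to 9.37) and 11.4 CPM (9.02 to 14.1), with a mean of 9.07 ± 3.25 CPM and rank 283. The order Mir26b, Mir26a-2, Mir26a-1 held in both libraries without overlap. All 3 genes reached 1 CPM in both libraries, as did 387 of the 1973 genes (19.6%), and all lay above the level that a count of 0 allows (3 reads, 0.564 and 0.421 CPM). On the opposite strand each of the 3 genes had 0 reads in both libraries.

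**Figure D2:**
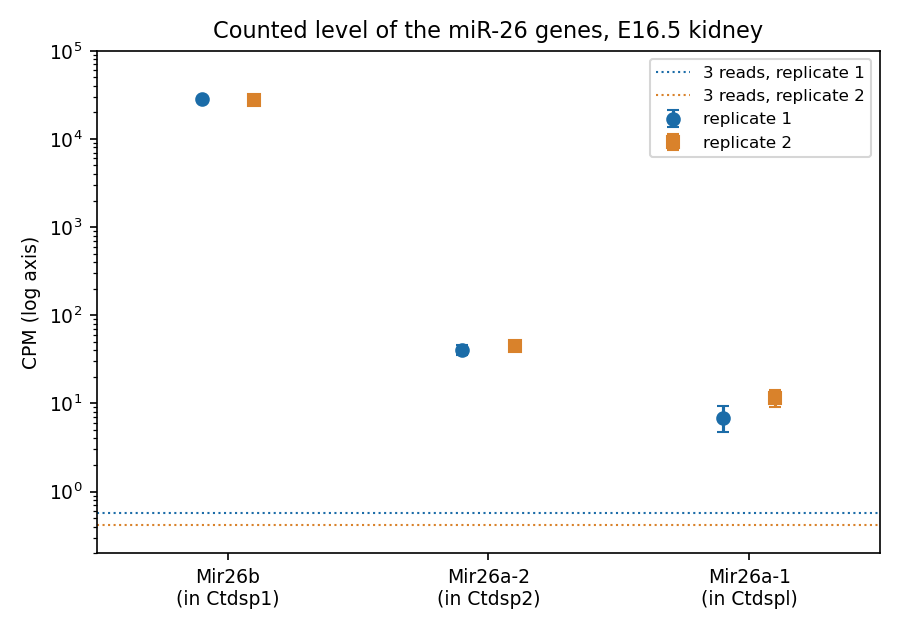
Level in CPM (log axis) of each miR-26 gene in replicate 1 (circles) and replicate 2 (squares), with exact 95% counting intervals, which are smaller than the symbols for Mir26b, and dotted lines at 3 reads. Mir26b stands at 28608 and 27754 CPM, Mir26a-2 at 40.2 and 45.0 CPM, and Mir26a-1 at 6.77 and 11.4 CPM.

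Mir26b alone supplied 99.84% and 99.80% of the reads counted for the family. In reads it stood 711-fold above Mir26a-2 in replicate 1 (exact 95% interval 622 to 817) and 616-fold in replicate 2 (552 to 690). Against Mir26a-1 the ratio was 4226-fold (3052 to 6034) and 2443-fold (1965 to 3076). As a mean log2 ratio of CPM + 1 within a library, Mir26b exceeded Mir26a-2 by 9.34 ± 0.14 and Mir26a-1 by 11.49 ± 0.50.

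Between the copies that share the 5p arm, Mir26a-2 was the higher. Its reads stood 5.94-fold above those of Mir26a-1 in replicate 1 (4.16 to 8.71) and 3.96-fold in replicate 2 (3.10 to 5.12), a mean log2 ratio of 2.15 ± 0.36 on CPM + 1. The replicate spread is the pooled SD of log2(CPM + 1) between the libraries, 0.33 over the 98 genes with a mean of 5 to 50 CPM and 0.22 over the 181 genes at 100 CPM or more. Taken as 95% normal limits on the ratio of the mean levels of a pair of genes, these come to 1.56-fold in the lower range and 1.34-fold in the upper. All 3 ratios within the family lay beyond both. The range of 5 to 50 CPM was chosen after the levels of the Mir26a genes were known, and the smallest p that an exact sign-flip test of 2 libraries allows is 0.5.

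The counts of the Mir26a genes can leave out reads of their 5p arm. A read of that arm alone matches both copies, and the tables set reads that map to several places apart, in 1 row that names no gene. This row held 3323410 reads in replicate 1 and 3718198 in replicate 2. As many reads as Mir26b had would make up 4.58% and 5.32% of it, and the reads counted for both Mir26a genes together 0.00752% and 0.0108%. How many of those reads are miR-26a-5p was not tested, since the tables do not list them by sequence. The tables also give no arm, so whether the counted Mir26a reads come from the 3p arms, which are particular to each copy in the precursors compared, was not tested either. The difference between Mir26b and the Mir26a genes is therefore one of counted reads, and the level of miR-26a in this kidney is not known from it.

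The genes closest to each member over both libraries, by Euclidean distance in log2(CPM + 1), show what those levels are like in this tissue. For Mir26b these were Mir17 of the proliferation-linked Mir17 cluster, at 27319 ± 289 CPM and a distance of 0.07, Mir99a at 29944 ± 177 CPM (0.13) and Mir130a at 26604 ± 594 CPM (0.13). Each lay within 1.34-fold of Mir26b. For Mir26a-2 they were Mir496a (40.3 ± 4.55 CPM), Mir667 (45.6 ± 7.78 CPM) and Mir325 (38.9 ± 1.08 CPM). For Mir26a-1 they were Mir5113 (8.67 ± 3.22 CPM), Mir8114 (8.48 ± 1.89 CPM) and Mir450-2 (8.04 ± 1.53 CPM). With 2 libraries this measure finds genes of like level and little more.

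The family of miR-103 and miR-107 is built alike in its hosts and in its whole arms. Its 3 genes lie in introns of the pantothenate kinase genes Pank3, Pank2 and Pank1. Mir103-1 and Mir103-2 share their whole 3p arm, miR-103-3p, and Mir107 shares no whole arm. All 3 lie in intron 5 of 6 of the longest coding transcript of their host. Mir107, in Pank1, was counted at 1219 and 1332 CPM (mean 1275 ± 79.8). Mir103-2, in Pank2, stood at 29.1 and 42.8 CPM (36.0 ± 9.64), and Mir103-1, in Pank3, at 2.44 and 5.05 CPM (3.75 ± 1.84). By counted reads the gene without a shared arm was again the highest, and the copies again differed from each other. A read of miR-103-3p alone matches both copies, so that the Mir103 counts share the limit of the Mir26a genes. A read shorter than an arm can also match a gene that shares no whole arm. In Mir26b 0 of 68 windows of 18 nt occur in another precursor. For Mir107 this is not given here, so its counts may share the limit too. Mir103-1 had only 13 and 36 reads.

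On the log2(CPM + 1) scale the gene without a shared arm exceeded the mean of its 2 copies by 10.41 ± 0.32 in the miR-26 family and by 6.63 ± 0.39 in the family of miR-103 and miR-107. The libraries gave 10.64 and 10.18 for the former and 6.90 and 6.36 for the latter, so the families did not overlap. The other families in introns of related hosts hold only copies or only distinct genes. Mir128-1 (in R3hdm1, 67.2 ± 8.56 CPM) and Mir128-2 (in Arpp21, 9.71 ± 0.634 CPM) share miR-128-3p, known from neurons. Mir218-2 (in Slit3, 21.9 ± 0.712 CPM) and Mir218-1 (in Slit2, 13.6 ± 3.33 CPM) share miR-218-5p. Mir148b (in Copz1) and Mir152 (in Copz2) share no arm with another gene and stood at 150.1 ± 7.18 and 132 ± 15.2 CPM, within 1.34-fold of each other. Mir204 (in Trpm3, 227 ± 1.99 CPM) and Mir211 (in Trpm1, 0.867 ± 0.162 CPM) share no arm either, and stood far apart. All 6 genes with a shared arm in these other families had means below 100 CPM, as did Mir211. So did 90.8% of all 1973 genes and 53.2% of the 387 detected ones, so that nothing particular to a shared arm is read from this.

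**Figure D3:**
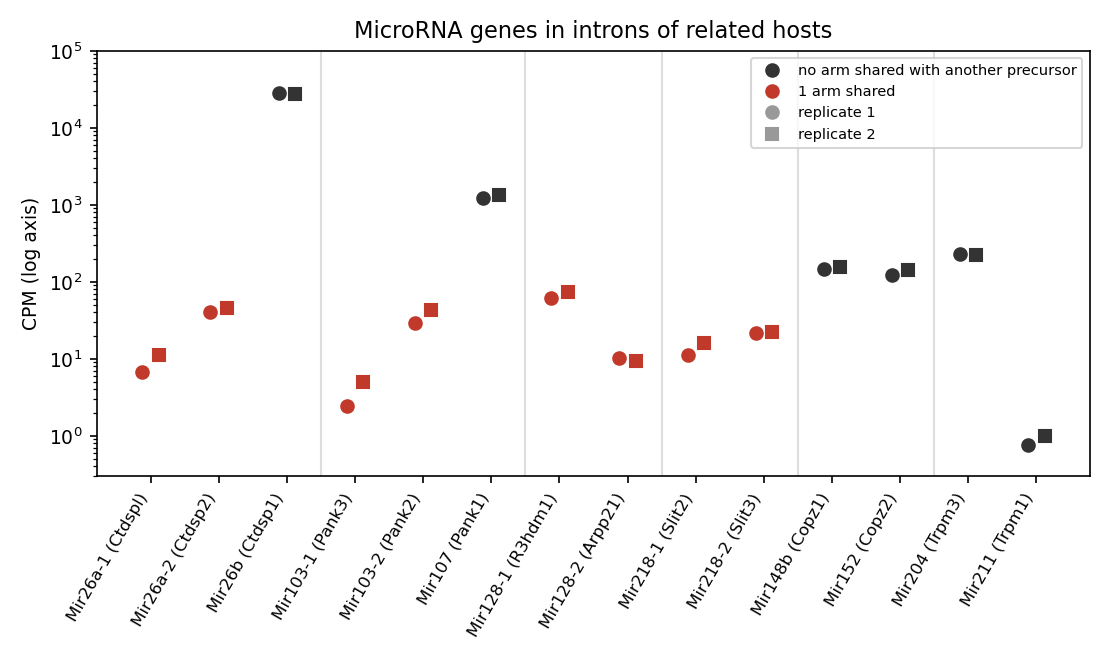
Level in CPM (log axis) of each gene in the miR-26 family and in the other families with related host genes (host in brackets), in replicate 1 (circles) and replicate 2 (squares), black for genes that share no mature arm with another precursor and red for genes that share 1. Mir26b and Mir107 stand above the red genes of their families, and the 8 red genes all lie below 100 CPM, as do 90.8% of all genes counted.

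The same comparison was then made for every seed family that holds both kinds among genes with a RefSeq mature sequence. Of 916 genes with a RefSeq mature sequence and a row, 813 share no arm with another precursor, 56 share 1 of 2 arms and 47 share every arm. The levels of these groups follow, and whether a shared arm lowered the counts was not tested. Of the genes that share 1 of 2 arms, as the Mir26a genes do, 73.2% were detected, with a median of 13.3 CPM, and 8.93% had at least 1000 CPM. Of those that share none, 37.0% were detected, with a median of 0.422 CPM, and 8.49% had at least 1000 CPM. Of those that share every arm, 21.3% were detected, with a median of 0 CPM, and 0% had at least 1000 CPM. The highest mean was 154681 CPM among genes that share none, 3076 among those that share 1 of 2, and 510 among those that share every arm. Families were formed from genes with the same seed on the same arm, and the highest gene for which no other precursor holds that arm was set against the highest gene for which another does. In 14 such families with a gene at 10 CPM or more, the gene without a copy was higher in both libraries in 12, lower in both in 1, and mixed in 1. Some let-7 genes enter by the 5p and again by the 3p seed. Without the 3p family, whose genes all belong to the 5p one, the count was 11 of 13, an alternative chosen after seeing the data. The median log2 ratio was 4.61, or 4.21 over the 13, and that of miR-26, with 9.44 and 9.24 in the libraries, was the highest of the 14. It was followed by Mir30e over Mir30c-1 (7.59 and 7.82), and the order ended with Mir25 over Mir92-1 (-2.34 and -2.33), where the copied gene was the higher. A read of a shared arm alone matches several genes and can be left out of all their counts. The grouping is therefore tied to the way of counting, and its part in these ratios was not tested. A gene without a copied arm can still share a shorter stretch. Of all 1973 genes, 960 hold an 18-nt stretch that occurs in another precursor. Families also hold unequal numbers of each kind, as that of Mir30e, entered here with 3 genes without a copied arm and 2 with it. The 1057 gene rows without a matched mature sequence enter no family. Families can therefore be incomplete, and Mir30b, Mir30d and Mirlet7a-2 are in none of them. Some reach 10 CPM only through the gene without a copy. These ratios share the libraries and the way of counting, so no p-value is given.

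**Figure D4:**
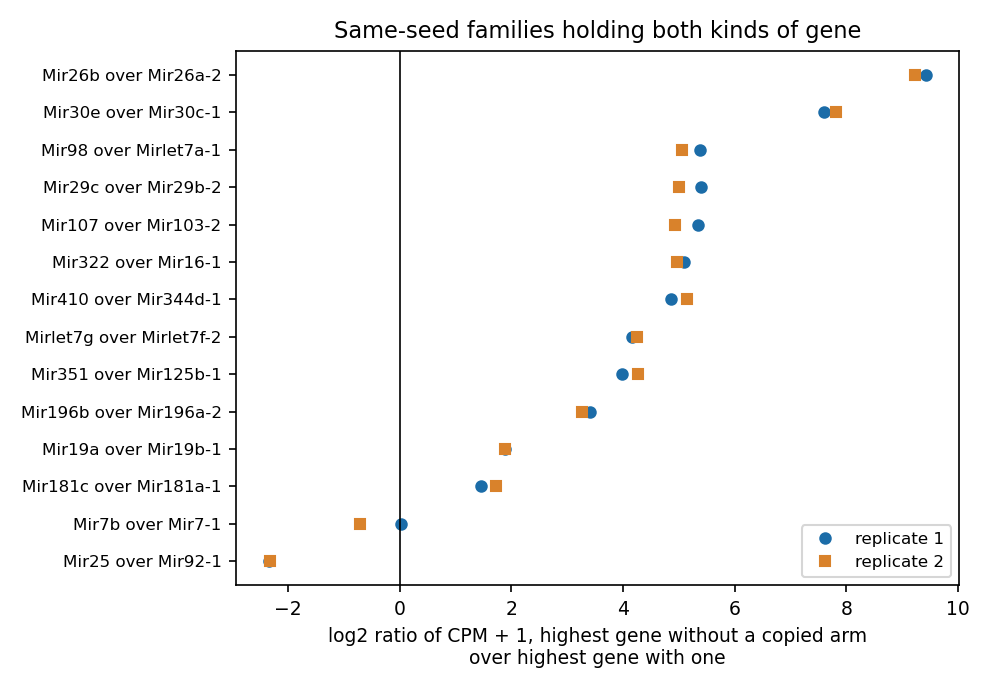
Log2 ratio of CPM + 1 of the highest gene without a copied arm over the highest gene with one, for 14 same-seed families in replicate 1 (blue circles) and replicate 2 (orange squares). Mir26b over Mir26a-2 lies farthest to the right at 9.44 and 9.24, and Mir25 over Mir92-1 lies left of 0.

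The next question was how far the members differed between the replicates. Scaled by TMM, the log2 ratio of replicate 2 to replicate 1 was -0.19 for Mir26b, 0.02 for Mir26a-2 and 0.59 for Mir26a-1, with 95% counting intervals of -0.20 to -0.18, -0.23 to 0.27 and 0.03 to 1.16. In a two-sided exact binomial test on reads with Benjamini-Hochberg adjustment over 455 genes, 1 of the 3 members passed, Mir26b, which was lower in replicate 2 (adjusted p = 5.26e-312). Of all 455 genes 153 passed (33.6%), so that 1 of 3 is near the background. Of these, 47.1% were higher in replicate 2, against 78.8% of the 193 that passed with library totals. Mir26a-2 (exact binomial, adjusted p = 0.958) and Mir26a-1 (exact binomial, adjusted p = 0.0965) did not pass. Library totals in place of TMM also move the median of all tested genes from 0.01 to 0.15. Mir26b then stood at -0.04 and Mir26a-1 at 0.74, and Mir26a-1 passed (exact binomial, adjusted p = 0.0227).

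The binomial test takes in counting error only, and its p for Mir26b reflects the number of reads. In the edgeR exact test with a biological coefficient of variation of 0.2, no member passed (adjusted p = 1 for each), against 3 of 455 genes (0.659%). The value of 0.2 was set and not estimated, and the estimate from both libraries taken as 1 group was 0.142. The edgeR exact test compares 2 libraries and no conditions. The copies Mir103-1 and Mir103-2 had log2 ratios of 0.87 and 0.41, of which that of Mir103-2 passed (exact binomial, adjusted p = 0.0133), while Mir107 stood at -0.02 and did not pass. Of the 11 genes in introns of related hosts, 1 was higher, 1 was lower and 9 did not pass the binomial test, against 33.6% of all genes that passed it, with a median of 0.09 against 0.01 over all tested genes. The share of reads that mapped to several places also differed between the libraries, at 28.0% of all reads in replicate 1 and 25.3% in replicate 2, and its part in these ratios was not tested.

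**Figure D5:**
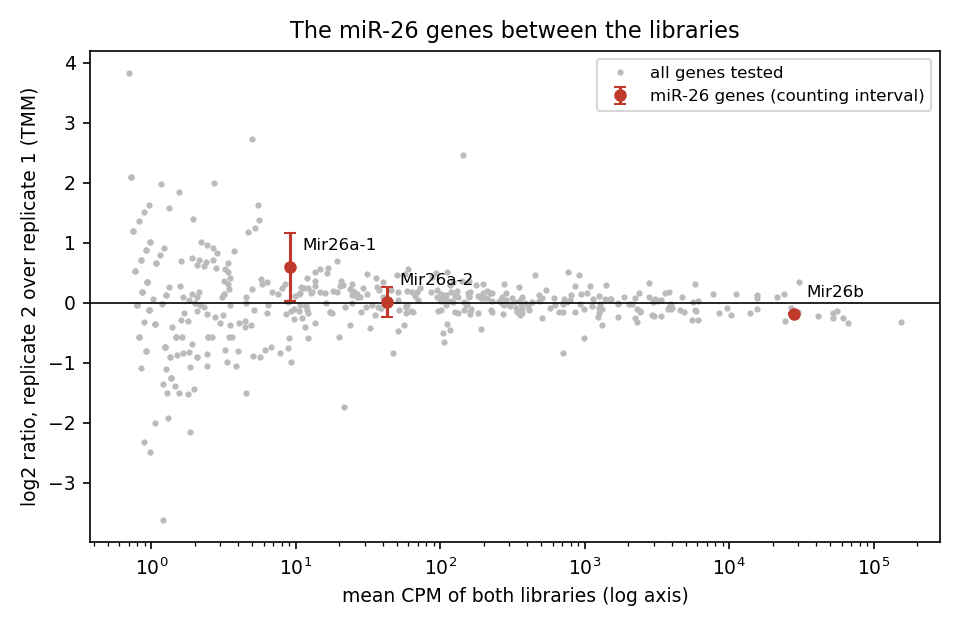
Log2 ratio of replicate 2 over replicate 1 (TMM) against mean CPM (log axis) for the 455 tested genes (grey) and the miR-26 genes (red, with 95% counting intervals). Mir26b at -0.19 and Mir26a-2 at 0.02 lie close to 0, and Mir26a-1 at 0.59 has the widest interval.

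Other microRNAs known to act on Ezh2 were measured beside the family, from a list of 7 genes of which 6 have a row. Mir98 of the let-7 family reached 8463 ± 92.5 CPM, Mir214 3833 ± 593 CPM and Mir101b 1379.7 ± 133 CPM. Mir101a stood at 94.8 ± 16.5 CPM, and Mir138-2 and Mir138-1, which share miR-138-5p, at 36.5 ± 7.15 and 24.6 ± 3.35 CPM. Mir26b exceeded each of them in both libraries, and exceeded Mir98, the highest of those listed, by more than 1.34-fold. The list holds only Mir98 of the let-7 family. Mirlet7g (55692 ± 235 CPM) and Mirlet7i (52302 ± 2886 CPM), which have the 5p seed of Mir98, stood above Mir26b. The counts of the Mir138 copies share the limit of the Mir26a genes. Between the libraries, 3 of the 6 were higher in replicate 2, Mir98 was lower and 2 did not pass in the exact binomial test, with a median log2 ratio of 0.15 against 0.01 over all tested genes, of which 33.6% passed. Of the 4, Mir101b was closest to the threshold (exact binomial, adjusted p = 0.0499), and none passed in the edgeR exact test (adjusted p = 1 for each). Mir101c was not analysed here.

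Target messenger RNAs were not measured, and only the letters of the seed match were looked up. The motif is TACTTGA, the complement of the shared 5p seed, searched on the transcript strand in the longest 3′ UTR of the principal transcripts of GENCODE M21. Ezh2 holds 1 match in 405 nt and Ctdsp2 holds 1 in 3486 nt, while Ctdsp1 and Ctdspl hold 0 in 1704 and 3352 nt. The 2 sites are shown with the match in capitals, to set them beside the seed.
Ezh2 site: tgaataaagaaTACTTGAacttgttg
Ctdsp2 site: agtgttgctctTACTTGAtttgccaa

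The Ezh2 match is followed by A, which makes it the longer match TACTTGAA, and the Ctdsp2 match is not. Among 3′ UTRs of similar length, 3.13% hold the motif for the length of Ezh2 and 23.2% for that of Ctdsp2, against 9.16% of all 20655 scanned. Each match serves all 3 genes alike, since their 5p seeds are the same.

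The libraries held 5317669 and 7128703 reads in microRNA gene rows. The labelled tissue was checked with marker lists. All 6 kidney tubule genes and all 5 epithelial genes were detected, with summed levels of 14591 and 17594 CPM and of 26285 and 26770 CPM. Of the tubule sum, Mir30a alone made up 14098 and 17076 CPM, and the other 5 genes came to 493 and 518 CPM. The endothelial Mir126a stood at 52632 and 51554 CPM. Among markers of other tissues, the pancreatic Mir375 stood at 867 and 537 CPM, above the sum of those 5 tubule genes in both libraries, the erythroid pair at 303 and 422 CPM in sum, the striated muscle list at 267 and 287 CPM, all from Mir206, and liver Mir122 at 210.1 and 171 CPM. The neuronal list summed to 3.20 and 1.96 CPM over 5 genes, 2 of them at 0. The neuronal genes and the other muscle genes come in copies too, so that their counts share the limit of the Mir26a genes. So do Mir194-1 and Mir194-2, and the sum of the 5 tubule genes can leave out reads. Its order against Mir375, at 518 against 537 CPM in replicate 2, is one of counted reads.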

How the data were processed

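MicroRNA-seq of 2 libraries of embryonic mouse kidney was analysed from the authors' deposited tables of raw counts of reads per microRNA gene, with assembly mm10 and annotation M4 named in the text file deposited beside each. Aligner, counter and trimming: not given in the sources used here. In all gene rows the first count equals the sum of the other 2, taken as the strand of the gene, used here, and the opposite strand. Rows that name no gene held 55.2% and 51.5% of all reads (unmapped, mapping to several places, in no gene) and stayed out of library sizes and tests. Symbols and precursors came from GENCODE M21 (1894 of 1973 rows matched), mature sequences from RefSeq (916 matched). An arm was called shared when it lay whole in another precursor.

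CPM used the sense reads of gene rows, and log2 values a pseudocount of 1 CPM. Reads of replicate 2 were set against those of replicate 1 by a conditional binomial test (exact, two-sided, scipy 1.17.1) with edgeR 4.0.16 TMM factors, adjusted by Benjamini-Hochberg over all genes with at least 10 reads summed, and tested on simulated data. The simulated counts held counting error only, as the binomial test assumes. That check therefore does not cover the further variation between real libraries. The quasi-likelihood test could not be fitted with 1 library a side. Alternatives were library totals, DESeq2 1.42.0 size factors, no read minimum, the edgeR exact test, other pseudocounts, other denominators, either strand and each replicate alone. Precursors were folded with RNAfold 2.7.2. The genes named are the 3 members, 3 nearest genes of each, and the genes of the related-host and Ezh2 lists. Chosen after their values were seen were the families at either end of the seed comparison, and Mirlet7g and Mirlet7i. Members and lists were chosen with earlier results of these data known.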

Additional observations from a re-analysis of the deposited data

Results flagged for a closer look

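Reads that mapped to several places lie outside the counts of the genes, and numbered 3323410 in replicate 1 and 3718198 in replicate 2, above the 3 reads that a count of 0 allows. Which microRNAs they come from is not listed, and the share of miR-26a-5p among them was not tested. Among the genes named, Mir130a, one of the nearest in level to Mir26b, had 9 reads on its opposite strand over both libraries, a strand not used for levels. No group has the 4 samples that a check for single deviating libraries needs.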

How the results depend on the processing

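Of 50 values under alternatives, 44 kept their direction and their side of the threshold, moved by less than the replicate SD, or, for counts, stayed within a set ratio. With 2 libraries a value from either replicate alone always lies within that SD of the mean. Those entries among the 44 could not come out otherwise. By the set ratio, the number of genes passing with library totals is counted as kept. With all reads of the table as denominator, the levels were 13131 CPM for Mir26b, 19.9 for Mir26a-2 and 4.27 for Mir26a-1, as the denominator is larger. With library totals, Mir26a-1 passed the binomial test at a log2 ratio of 0.74, and of 193 passing genes 78.8% were higher in replicate 2, against 47.1% of 153 with TMM. With the edgeR exact test, Mir26b no longer passed at a log2 ratio of -0.19, and 3 genes passed in place of 153 (18 at an unadjusted p under 0.05). Each replicate alone gave 27754 to 28608 CPM for Mir26b, 40.2 to 45.0 for Mir26a-2 and 6.77 to 11.4 for Mir26a-1. The log2 ratios then ran from 9.24 to 9.44 for Mir26b over Mir26a-2, 11.13 to 11.85 over Mir26a-1, and 1.90 to 2.41 for Mir26a-2 over Mir26a-1. No paired analysis was possible because the series holds 1 group. With 36 and 81 reads, Mir26a-1 is the member whose level depth limits most.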
